A study of Mus musculus with 8 samples.

Results

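A set of 10 messenger RNAs of the translation machinery outside the ribosomal proteins was followed through meiotic maturation of mouse oocytes and under mutant BTG4. The set holds elongation factors (Eef1a1, Eef1b2, Eef1d, Eef1g and Eef2), both subunits of the nascent polypeptide-associated complex (Naca and Btf3), the ribosome-bound scaffold Rack1, the translationally controlled protein Tpt1, and nucleophosmin (Npm1). They were taken by symbol as known TOP-type mRNAs, with earlier results of these data known. All 10 were among the 15962 genes listed in every library and among the 13968 genes that passed the filter on low values and were tested.

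TOP mRNAs carry a terminal oligopyrimidine tract at the cap, that is, a C at the first transcribed base followed by a run of C and T bases. The tract places their translation under mTORC1 and the cap-binding repressor LARP1, and nearly all ribosomal protein mRNAs have one. During maturation the oocyte is transcriptionally silent, and maternal mRNAs are translated, stored or removed. BTG4 is a maternal adaptor that brings the CCR4-NOT deadenylase to mRNAs, whose poly(A) tails are then shortened. The question asked of these RNAs was whether they follow the ribosomal protein RNAs.

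The samples were 8 libraries, 2 in each of 4 groups, made from 15 oocytes each, and all oocytes came from superovulated ICR females aged 6 weeks. Germinal vesicle (GV) oocytes, arrested before maturation, and MII oocytes, arrested after it, were cultured in vitro and labelled WT. The Btg4wt and Btg4tm groups were MII oocytes that had been injected as fully grown oocytes with RNA for Myc-tagged BTG4, either wild type or with its phosphosites changed to alanine. The Btg4 gene of the injected oocytes was intact, and the amounts of endogenous and injected BTG4 protein were not measured here. The paper showed both injected proteins by immunoblot and reported that either one seemed to lower the endogenous protein. Libraries were primed on the poly(A) tail, so fewer molecules and shorter tails cannot be told apart. The labels do not say whether the libraries of a group came from separate females, and p-values measure only the spread between these libraries.

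Values are TPM (shares of the library after division by gene length) scaled by the median of ratios. A call needed an adjusted p under 0.05 in limma and an absolute log2 fold change over 1. Replicate libraries correlated at 0.982 to 0.987. Oocyte markers summed to between 33881 and 48237 scaled TPM. Of the 10, Figla, Zp3, Zp2 and Zp1 were called lower in MII over GV (-3.62, -2.59, -2.17 and -1.72). The same 4 were called higher in Btg4tm over Btg4wt (2.80, 2.37, 1.59 and 1.23). The other 6 oocyte markers were not called in either comparison. The cumulus and granulosa cell list summed to between 32.9 and 44.1, with 5 of its 16 genes listed in every library, and its sum was lowest in GV (32.9 and 33.4) and highest in MII (41.1 and 44.1). Inha, 1 of 3 genes of this list that were in the fit, was called in the other direction. The log2 fold change of Inha was -1.72 in MII over GV and 1.74 in Btg4tm over Btg4wt. The other 2 were not called. The part of such cells in the results was not tested. Btg4 stood at 2650 and 2794 scaled TPM in GV, 5792 and 6002 in MII, 5178 and 5510 in Btg4wt, and 3725 and 4068 in Btg4tm. The injected groups were thus not above MII in Btg4 RNA level, which does not give the amount of protein.

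The bases around the annotated transcription starts are shown first, because the tract defines the class. RefSeq starts on GRCm38.p6 were found for 7 of the 10 genes, while Eef1d, Eef1g and Npm1 had no entry. Each line gives the 10 bases before the start and the first 20 bases after it, 5′ to 3′ on the gene's strand, with the longest C-led run of C and T in capitals.
Rack1: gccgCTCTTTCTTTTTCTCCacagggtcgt
Eef1a1: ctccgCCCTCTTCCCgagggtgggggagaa
Eef2: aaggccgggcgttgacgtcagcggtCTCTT
Naca: tcgttCTCTTaaagaggaaacccggacgcc
Btf3: tctggaggaagtggcgtcgcgttaCTTCCg
Eef1b2: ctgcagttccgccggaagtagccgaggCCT
Tpt1: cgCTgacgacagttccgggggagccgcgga
In order, they lie at chr11:48800350-48800379 (+), chr9:78481705-78481734 (-), chr10:81176621-81176650 (+), chr10:128035336-128035365 (+), chr13:98316987-98317016 (-), chr1:63176821-63176850 (+) and chr14:75845246-75845275 (+). For Btf3, the first of 2 entries is shown.

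Only Rack1 had C at base 1 followed by at least 4 pyrimidines, as 2.51% of the 32851 RefSeq promoters did and 14 of 68 entries of ribosomal protein genes. Its run of 16 bases began 6 bases before the annotated start, and 0.700% of promoters held a run as long in this window. Eef1a1 had a run of 10 bases across its start, a length that 4.71% of promoters reached. The run of Eef2 had 7 bases and passed the window's end by 2, and a run of that length or more was found in 15.8% of promoters. The run of Eef1b2 had 4 bases and passed the window's end by 1. Naca had a run of 5 bases and Tpt1 no run longer than 2. An annotated start may lie away from the one used, so a run present or absent says only which letters this window holds. The window of Naca lies wholly before the GENCODE start of the gene, at chr10:128035575, so its run may not be transcribed. Set beside the RNA values below, Rack1 had the longest run and was not called lower in MII. Eef1a1, Eef2 and Naca, with runs of 10, 7 and 5 bases, were called lower. Btf3, Eef1b2 and Tpt1, with runs of 5, 4 and 2 bases, were not. They and Rack1 were called lower when scaled to mitochondrial RNA, as were 11403 of the 13968 genes tested. A link between the run and the RNA values was not tested.

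Maturation divided the 10 RNAs. In MII over GV oocytes, Eef1d, Eef1a1, Naca, Eef2 and Eef1g fell, by 1.88 to 4.37 on the log2 scale. Tpt1 and Npm1 rose by 1.10 and 1.06 relative to the median gene, and Eef1b2, Btf3 and Rack1 were not called. Thus 5 of 10 were called lower and 2 higher, where 24% of all genes tested were called lower and 12.5% higher. The same 5 RNAs that fell in MII were called higher in Btg4tm over Btg4wt, and no other of the 10 was called there. Of all genes tested, 18.1% were called higher in that comparison and 7.94% lower. How many of all genes that fell were also called higher was not counted here. The paper reported that most transcripts raised with the mutant were among those lost in normal MII oocytes, so the pairing is not particular to these RNAs. Scaled to mitochondrial RNA, Eef1b2 and Btf3 were called higher as well in Btg4tm over Btg4wt (1.20 and 1.08), and all genes called higher went from 2534 to 6089.

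**Figure D1:**
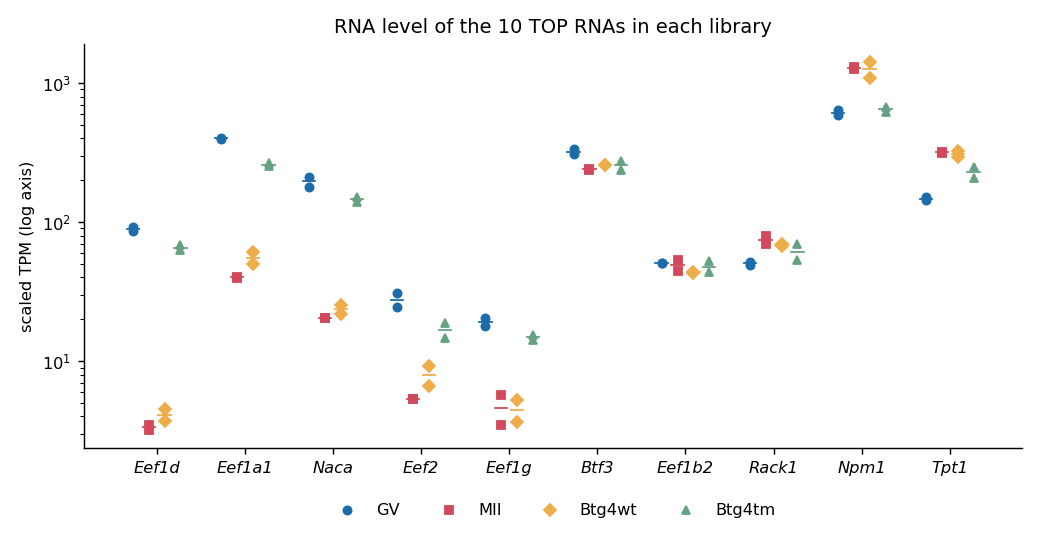
Scaled TPM (log axis) of the 10 RNAs in the 8 libraries. Each point is a library and each short line the mean of the 2 libraries of a group. For the 5 RNAs on the left, MII and Btg4wt points sit below GV and Btg4tm points, while Npm1 and Tpt1 on the right show the opposite order; scaled to mitochondrial RNA, both were lower in MII than in GV.

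Eef1a1 encodes eEF1A1, the GTPase that delivers aminoacyl-tRNA to the ribosome. Its level was 399 and 401 scaled TPM in GV, 39.9 and 40.1 in MII, 61.2 and 49.7 in Btg4wt, and 254 and 264 in Btg4tm. The GV and Btg4tm libraries were high, the MII and Btg4wt libraries low, and no groups overlapped. The log2 fold change was -3.29 ± 0.12 (SE, adjusted p = 4.91e-07) in MII over GV and 2.21 ± 0.12 (adjusted p = 3.70e-06) in Btg4tm over Btg4wt.

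The exchange factor that recharges eEF1A, the eEF1B complex, is made of the products of Eef1b2, Eef1d and Eef1g, and its subunits did not move together. Eef1d (chr15:75894205-75909556), an exchange subunit, stood at 86.0 and 92.0 scaled TPM in GV and at 3.20 and 3.49 in MII. It was at 3.70 and 4.53 in Btg4wt and at 62.8 and 68.1 in Btg4tm. Its log2 fold changes, -4.37 ± 0.14 (SE, adjusted p = 4.78e-07) in MII over GV and 3.70 ± 0.14 (adjusted p = 1.26e-06) in Btg4tm over Btg4wt, were the largest of the 10 RNAs. Eef1g (chr19:8967041-8978479), the structural subunit, was at 18.03 and 20.5 scaled TPM in GV, 3.47 and 5.74 in MII, 5.22 and 3.66 in Btg4wt, and 15.5 and 14.2 in Btg4tm. It fell by 1.88 ± 0.24 (adjusted p = 0.000210) in MII over GV and was higher by 1.56 ± 0.24 (adjusted p = 0.000905) in Btg4tm over Btg4wt, both on the log2 scale. With trends on length and GC content removed, the second value of Eef1g was 0.91, which is no call. Eef1b2, the other exchange subunit, had 50.9 and 51.0 scaled TPM in GV, 44.2 and 53.7 in MII, 44.1 and 42.7 in Btg4wt, and 43.8 and 52.1 in Btg4tm. Its GV and MII libraries overlapped, as did its Btg4wt and Btg4tm libraries. The log2 fold change of Eef1b2 was -0.06 in MII over GV (95% interval -0.38 to 0.25) and 0.13 in Btg4tm over Btg4wt (-0.18 to 0.45).

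Eef2 encodes the translocase that moves the ribosome along the mRNA. It had 24.6 and 30.7 scaled TPM in GV, 5.34 and 5.34 in MII, 9.17 and 6.62 in Btg4wt, and 18.9 and 14.7 in Btg4tm. No groups overlapped, but the Btg4tm libraries stood between Btg4wt and GV. The log2 fold change was -2.17 ± 0.21 (SE, adjusted p = 4.26e-05) in MII over GV and 1.01 ± 0.21 (adjusted p = 0.00412) in Btg4tm over Btg4wt. The second value lay at the threshold of 1, and it was 0.80 without Btg4wt replicate 2 and 0.84 without Btg4tm replicate 1, so that Eef2 was then not called. Nor was it with TPM as deposited (0.99), quantile normalization (0.79) or length and GC trends removed (0.79).

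The nascent polypeptide-associated complex binds chains as they leave the ribosome, and its RNAs also separated. Naca, the alpha subunit, was at 179 and 213 scaled TPM in GV, 20.3 and 20.5 in MII, 25.5 and 21.7 in Btg4wt, and 139 and 153 in Btg4tm. It fell by 3.20 ± 0.13 on the log2 scale in MII over GV (adjusted p = 7.80e-07) and was higher by 2.58 ± 0.13 in Btg4tm over Btg4wt (adjusted p = 3.28e-06). Btf3, the beta subunit, had 307 and 336 scaled TPM in GV, 238 and 240 in MII, 257 and 255 in Btg4wt, and 238 and 274 in Btg4tm. Its MII libraries were below its GV libraries, while the 2 injected groups overlapped. The difference in MII over GV, -0.42 ± 0.10 on the log2 scale (adjusted p = 0.00688), was under the minimum for a call, and in Btg4tm over Btg4wt it was -0.0030 (95% interval -0.24 to 0.23).

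Rack1 encodes a scaffold protein on the small ribosomal subunit. It had 51.7 and 49.2 scaled TPM in GV, 79.5 and 70.1 in MII, 67.0 and 69.3 in Btg4wt, and 53.2 and 69.5 in Btg4tm. The MII libraries were above the GV libraries by 0.56 ± 0.14 on the log2 scale (adjusted p = 0.00921), which is no call. The Btg4tm libraries differed by more from each other than the means of Btg4tm and Btg4wt did (log2 fold change -0.16, 95% interval -0.49 to 0.17).

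Tpt1, known as TCTP and abundant in growing cells, was at 144 and 151 scaled TPM in GV, 320 and 315 in MII, 295 and 322 in Btg4wt, and 207 and 248 in Btg4tm. Npm1, a nucleolar histone chaperone of ribosome assembly, had the highest scaled TPM of the 10 RNAs in every library. An order across genes depends on the gene lengths behind the TPM, which are not given. Npm1 had 591 and 635 scaled TPM in GV, 1258 and 1306 in MII, 1409 and 1095 in Btg4wt, and 623 and 671 in Btg4tm. Both RNAs were high in MII and Btg4wt, and their groups did not overlap within either comparison. In MII over GV the log2 fold changes were 1.10 ± 0.11 for Tpt1 (adjusted p = 5.91e-05) and 1.06 ± 0.13 for Npm1 (adjusted p = 0.000153). Under mutant against wild-type BTG4 they were -0.44 ± 0.11 (adjusted p = 0.0112) and -0.94 ± 0.13 (adjusted p = 0.000470), both short of the minimum for a call. No RNA of the 10 was called lower there, where 7.94% of all genes were, while 5 were called higher, where 18.1% of all genes were. With trends on length and GC content removed, Tpt1 and Npm1 were called lower at -1.35 and -1.25 (adjusted p = 3.18e-05 and 0.000114), and 3 of the 10 were called higher. Of the 13968 genes tested, 1413 were then called lower and 1862 higher. Tpt1 was then at 2.21 in MII over GV.

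These directions are relative to the other mRNAs of a library. When libraries were scaled to the 19 mitochondrially encoded RNAs, which took 0.625% and 0.651% of the deposited TPM in GV and 2.71% and 2.60% in MII, the median log2 fold change of all genes moved from -0.0017 to -1.74 in MII over GV and from 0.0077 to 0.88 in Btg4tm over Btg4wt. The log2 fold changes in MII over GV were then -1.11 for Tpt1, -1.15 for Npm1 and -1.62 for Rack1. All 10 RNAs were called lower, as were 11403 of the 13968 genes tested. Only 7 of all genes tested were then called higher, so each rise in MII over GV given here is one relative to the median gene. The 5 RNAs that fell did so under each scaling, namely the median of ratios, TPM as deposited, quantile normalization and mitochondrial RNA.

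Against the ribosomal protein RNAs, the 10 RNAs had the same 2 patterns. Of 77 ribosomal protein RNAs tested, 66 were called lower in MII over GV and 62 higher in Btg4tm over Btg4wt, with median log2 fold changes of -3.05 and 2.48. The medians over the 10 RNAs were -1.15 and 0.57, and over all genes tested -0.0017 and 0.0077. In MII over GV, the log2 fold change of Eef1d was below those of 68 of the 77, and Eef1a1 and Naca stood in the middle, below 46 and 43. Eef2 and Eef1g were below 27 and 25 of the 77. Btf3, Eef1b2 and Rack1 were below 5, 4 and 2, and Tpt1 and Npm1 were above all 77.

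**Figure D2:**
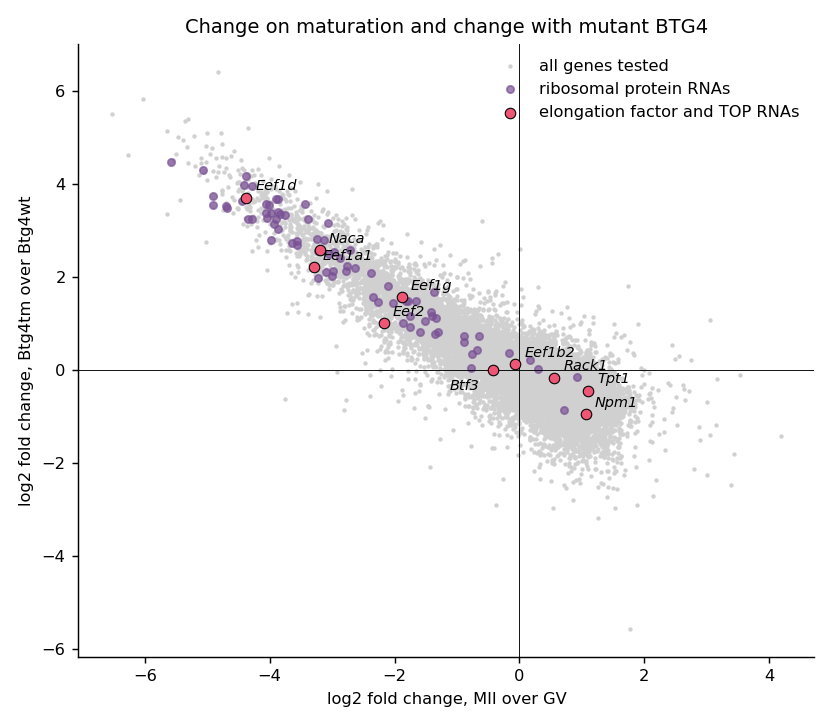
Log2 fold change in MII over GV (horizontal) against Btg4tm over Btg4wt (vertical), which share no library; each point is a gene. Eef1d, Naca, Eef1a1, Eef2 and Eef1g lie among the ribosomal protein RNAs at the upper left, and Eef1b2, Btf3, Rack1, Tpt1 and Npm1 lie near the centre or to the lower right; scaled to mitochondrial RNA, all 10 were below 0 in MII over GV.

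The difference from the ribosomal protein RNAs was then fitted directly, after the median log2 level of these RNAs was subtracted from each library. This median was 7.04 and 7.07 in GV, 3.55 and 3.57 in MII, 3.86 and 3.65 in Btg4wt, and 6.17 and 6.73 in Btg4tm. Eef1a1 kept a similar distance above this median, with differences of 1.61 and 1.59 in GV, 1.80 and 1.79 in MII, 2.10 and 2.01 in Btg4wt, and 1.82 and 1.32 in Btg4tm. Naca did so too, between 0.46 and 0.95 in the 8 libraries. The change of this difference in MII over GV was 0.20 for Eef1a1 (95% interval -0.30 to 0.69) and 0.29 for Naca (-0.22 to 0.80). In Btg4tm over Btg4wt it was -0.48 for Eef1a1 (-0.98 to 0.01) and -0.11 for Naca (-0.63 to 0.40).

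Eef1d changed by -0.89 (95% interval -1.47 to -0.30) in MII over GV and by 1.01 (0.43 to 1.60) in Btg4tm over Btg4wt, that is, more than the ribosomal protein median in both directions. The second value lay at the threshold, and it was 0.79 without Btg4wt replicate 1 or without Btg4tm replicate 1, 0.97 with quantile normalization, 0.93 with mitochondrial scaling and 0.95 with a filter of 5 TPM, none of them a call. The first value was -1.74, and called, with length and GC trends removed, and -1.10, and called, with a pseudocount of 0.1. Eef1g and Eef2 changed less than that median, by 1.61 (0.94 to 2.27) and 1.32 (0.67 to 1.96) in MII over GV. The values in Btg4tm over Btg4wt were -1.13 (-1.79 to -0.47) and -1.69 (-2.33 to -1.04). With length and GC trends removed, Eef2 was at 0.73 in MII over GV and Eef1g at -0.89 in Btg4tm over Btg4wt, neither called, and Eef1g was at -0.80 and not called without Btg4tm replicate 2. The other 5 RNAs departed from the ribosomal protein median by 3.06 (Btf3) to 4.59 (Tpt1) in MII over GV and by -2.56 (Eef1b2) to -3.63 (Npm1) in Btg4tm over Btg4wt, all on the log2 scale. By this measure 7 of the 10 were called in MII over GV and 8 in Btg4tm over Btg4wt. Since 93.9% and 91.3% of all genes tested were called there, the counts say little about these RNAs, and the comparison rests on the intervals. Subtracting the median puts the same library error into every gene, while the fit pools the spread over genes as if they were independent. These intervals may therefore be too narrow. With trends on transcript length and GC content removed, Naca changed by -1.11 and 1.30 in the 2 comparisons. Eef1a1 changed by -0.46 in MII over GV. The distance of Naca from the ribosomal protein median was thus steady without this correction and not with it. The correction took each gene's longest annotated transcript, which for Naca has 6745 bases against 885 in its principal transcript. The corrected values of Naca rest on that length, and the transcript present in these oocytes was not measured.

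**Figure D3:**
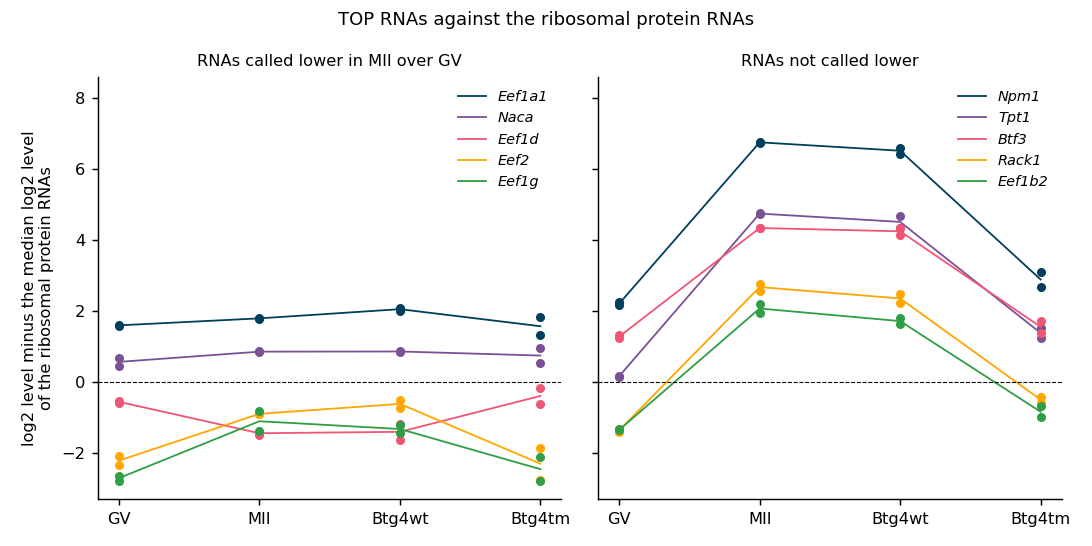
Log2 level of each RNA minus the median log2 level of the ribosomal protein RNAs in the same library; points are libraries and lines join group means, and the dashed line marks equality with that median. Eef1a1 and Naca run nearly flat, Eef2 and Eef1g are higher in MII and Btg4wt, Eef1d is lower there, and the 5 RNAs on the right are 3.06 or more higher in MII than in GV.

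On the log2 scale, the rise in Btg4tm over Btg4wt was 84.7% as large as the fall in MII over GV for Eef1d, 82.9% for Eef1g, 80.6% for Naca and 67.2% for Eef1a1. For Eef2 it was 46.3%. Over the 66 ribosomal protein RNAs that fell, this share had a median of 81.6% and ran from 51.4% to 122%. These shares set independent libraries side by side and were not tested.

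Injection of wild-type BTG4 was compared with no injection. In Btg4wt over MII, limma called 0 of the 10 RNAs and 0% of all genes tested, and at an unadjusted p under 0.05 there were 1 of the 10 and 1655 genes. That RNA was Eef1a1 (log2 fold change 0.45 ± 0.12, adjusted p = 0.236). Btg4tm over GV, which asks how near the mutant group was to oocytes before maturation, gave no call among the 10, where 1.02% of all genes were called lower and 1.02% higher. At an unadjusted p under 0.05 there were 6 of the 10, and 4147 of the 13968 genes tested. In that comparison Eef1a1 was at -0.63 ± 0.12 (adjusted p = 0.0146) and Tpt1 at 0.62 ± 0.11 (adjusted p = 0.0137), under the minimum fold change. The median of the 10 RNAs was -0.34, and that of the ribosomal protein RNAs -0.53. Both comparisons cross tables that list different numbers of genes (17384 for GV and MII, 16448 for the injected oocytes).

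The 3′ UTRs were compared next. The cytoplasmic polyadenylation element (CPE), read here as TTTTAT or TTTTAAT on the mRNA strand, is bound by CPEB and allows tail lengthening in maturing oocytes. Of the 5 RNAs that fell in MII over GV, 1 had a CPE in the annotated 3′ UTR of its principal transcript (Eef1a1), and of the other 5 all but Eef1b2 had at least 1. This count followed the split by RNA values and is a description. The elements are shown in 30 bases each, with the CPE in capitals.
Npm1, distal from the end: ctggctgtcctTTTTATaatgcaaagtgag
Npm1, nearer the end: taaactcagtaTTTTAATaaagtagcactg
Rack1, after the stop codon: aagTTTTATgacaaagtcttagaaataaac
Rack1, at the end: caaataaacacttttTTTTATttttgcaac
Tpt1: tcatcttgagcTTTTATtttgaccgtgatt
Btf3: aggagctgctaTTTTATatcatgactgctt
Eef1a1: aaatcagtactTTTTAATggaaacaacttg
On GRCm38 these are chr11:33152728-33152757 (-), chr11:33152504-33152533 (-), chr11:48806046-48806075 (+), chr11:48806405-48806434 (+), chr14:75848187-75848216 (+), chr13:98310083-98310112 (-) and chr9:78478506-78478535 (-). They end 454, 229, 380, 9, 212, 200 and 69 bases before the annotated transcript end.

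The annotated 3′ UTRs were 416 bases for Eef2, 377 for Eef1g, 126 for Naca, 1348 for Eef1d and 874 for Eef1b2, all without the element. They were 285 for Eef1a1, 314 for Tpt1, 259 for Btf3, 389 for Rack1 and 527 for Npm1. Over all genes tested with a coding transcript, 33.8% of those called lower in MII over GV had a CPE, 64.0% of those not called and 82.6% of those called higher. Longer 3′ UTRs can hold more such words, and the median lengths in these classes were 435, 1038 and 1370 bases. Among genes with a 3′ UTR of 100 to 1500 bases the shares were 27.3%, 52.8% and 75.4%. Of the ribosomal protein RNAs, 11 of the 66 called lower and 5 of the 11 not called had a CPE, with a median 3′ UTR of 69 bases over all 77. The 3′ ends used in these oocytes were not measured.

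**Figure D4:**
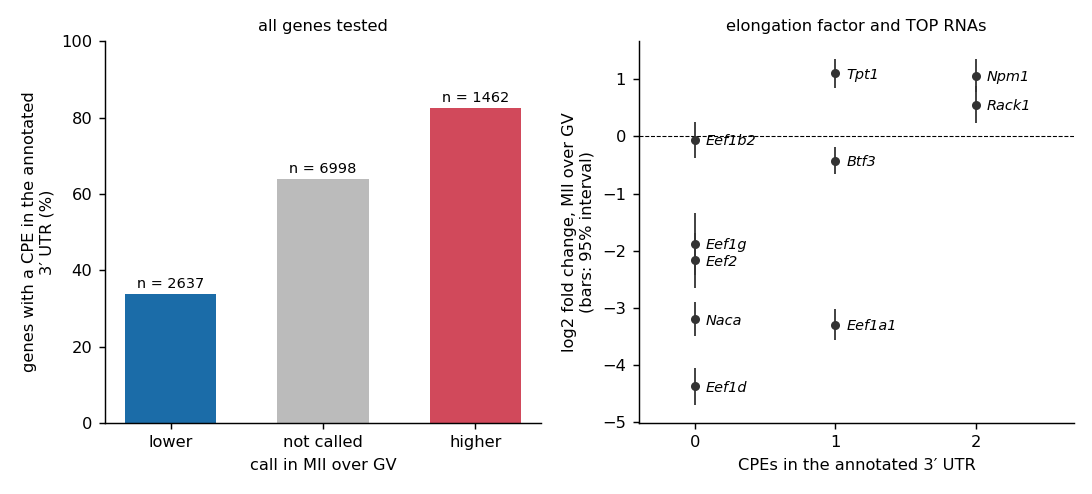
Left, percentage of genes tested whose annotated 3′ UTR holds a CPE, by call in MII over GV (33.8% lower, 64.0% not called, 82.6% higher). Right, log2 fold change in MII over GV with 95% intervals (bars) against the number of CPEs for the 10 RNAs; Npm1 and Rack1 have 2, Tpt1, Btf3 and Eef1a1 have 1, and scaled to mitochondrial RNA all 10 values were below 0.

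Other RNAs of the same processes were taken by list. Of 12 further TOP mRNAs, 5 were called lower in MII over GV and 1 higher, with a median log2 fold change of -0.24, and 4 were called higher in Btg4tm over Btg4wt, with a median of 0.21. The initiation factor subunits Eif3f and Eif3h fell by 3.89 and 3.00 on the log2 scale and the chaperonin subunit Cct4 by 2.18. They were higher by 2.79, 2.14 and 1.89 in Btg4tm over Btg4wt. The single rise was Nap1l1, a histone chaperone (1.38), named after its values were seen. The list held both RNAs that fell and RNAs that were not called. Of all genes tested, 24% were called lower and 12.5% higher in MII over GV. In Btg4tm over Btg4wt, 7.94% were called lower and 18.1% higher. The counts of the lists below stand beside the same shares.

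Of 13 other cytosolic elongation and termination factors tested, 1 was called in MII over GV. Eefsec, the factor for selenocysteine, fell by 2.14 in MII over GV and was higher by 2.02 in Btg4tm over Btg4wt. Gtpbp1, a GTPase related to eEF1A, was at -1.01 in Btg4tm over Btg4wt. The list's medians were 0.0029 and -0.06. Of 8 mitochondrial factors, Mrrf, Tufm and Mtrf1 fell by 1.83, 1.49 and 1.26 in MII over GV, and Mtrf1l was higher by 1.16 in Btg4tm over Btg4wt.

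The enzymes that modify eEF1A and eEF2 were mostly lower in MII. Of 12 tested, 9 were called lower in MII over GV (median of the list -1.44), where 24% of all genes were. In Btg4tm over Btg4wt 5 were called higher (median 0.80), where 18.1% of all genes were. Eef1akmt1, a lysine methyltransferase of eEF1A, was at 19.3 and 19.2 scaled TPM in GV, 0 and 0.498 in MII, 0.732 and 0.652 in Btg4wt, and 4.48 and 9.31 in Btg4tm. It was also called lower in Btg4tm over GV, at -1.43 ± 0.32 (SE, adjusted p = 0.0293). Eef1akmt4 and Eef1akmt2, of the same group of enzymes, fell by 2.27 and 2.11 in MII over GV. Dnajc24 and Dph5, which act in making the diphthamide residue of eEF2, were higher by 1.58 and 1.29 in Btg4tm over Btg4wt.

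Among 18 regulators of TOP mRNAs, 2 were called lower and 4 higher in MII over GV (median 0.47). The ribosomal protein RNA Rps6, which is also in that list, fell by 3.65, the kinase Rps6kb2 fell by 1.35, and Larp4, a poly(A)-binding La-related protein, rose by 1.41. In Btg4tm over Btg4wt the median was -0.18, with Rps6 higher by 2.72 and Tsc1, a brake on mTORC1, and Larp4b at -1.82 and -1.44. Of 15 nascent chain and ribosome-bound partners, Srp68 of the signal recognition particle fell by 1.31 in MII over GV and Srp54a was at -1.17 in Btg4tm over Btg4wt. In the nucleoplasmin family, Npm3 fell by 1.75 in MII over GV and was higher by 1.08 in Btg4tm over Btg4wt. Npm2, the oocyte histone chaperone, was not called in either comparison and had 2048 ± 174 scaled TPM in GV and 1876 ± 131 in MII (SD, n = 2).

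Likeness was measured as the root mean square difference between log2 values centred over the 8 libraries, among the 6882 genes that averaged 10 scaled TPM or more. Of the 20 genes nearest to each RNA, ribosomal protein RNAs were 2 for Eef1d, 1 each for Eef1a1, Eef1g and Naca, and 0 for the other 6, where they made up 1.05% of the genes searched. Eef1a1 and Naca were among each other's nearest 20, at a difference of 0.149. The genes nearest to the median profile of the 10 were Nup188, Dimt1, Gm13023, Clptm1 and Ubac1, at 0.066 to 0.098, a profile that lies between the RNAs that fell and those that did not.

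Copies of these genes elsewhere in the genome limit their levels. The authors left out reads of low mapping quality, and all stretches of 50 bases in the principal transcripts were compared with every other annotated transcript. The share of a transcript's bases that lay in a stretch found in another gene was 86.4% for Eef1a1, 74.7% for Btf3 and 72.4% for Naca. It was 71.9% for Eef1g, 51.9% for Npm1 and 44.4% for Tpt1. It was 35.0% for Eef1d, 22.3% for Eef2, 13.4% for Eef1b2 and 4.28% for Rack1. The RNAs with shares above 70% included 3 that fell and Btf3, which did not. Exons of Btf3 overlapped another annotated gene, Gm9828, over 22.0% of their length, and counting was without regard to strand. The levels of these RNAs are therefore uncertain between genes. Reads from copies or overlapping genes could also enter the fold changes, and this was not tested.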

How the data were processed

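Polyadenylated RNA of 8 mouse oocyte libraries was measured by Smart-seq2. The authors trimmed the reads with Trim Galore 0.6.10, aligned them to GRCm38 with HISAT2 2.2.0 and counted them on exons of the GENCODE annotation with featureCounts 2.0.6, without strand and with primary alignments only. They deposited TPM per gene symbol, 1 table per library. The gene lengths behind the TPM and the filter on listed genes are not given in the sources used here. Sequencing depth cannot be had from TPM, so no counting error is given. Groups and replicate numbers came from the sample labels. The labels speak of 3 samples per group, and 2 per group were analysed here.

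The deposited TPM of the 15962 genes in all tables were scaled by the median of ratios (factors 0.948 to 1.11) and taken as log2(scaled TPM + 1). Fold changes are on this scale, which understates those of low genes. The 13968 genes that reached 1 TPM in 2 libraries or more were fitted with limma 3.58.1 in R 4.3.3 (group means over 8 libraries, eBayes with trend, Benjamini-Hochberg adjustment over all genes). The fit against the ribosomal protein RNAs was the same after subtraction of their median log2 level in each library. The fit was tested on simulated data. The 10 RNAs and all gene lists were chosen with earlier results of these data known. Genes of other lists were named if called, at most 3 per list and comparison by the size of the log2 fold change; Btg4 was added as the targeted gene. Start sequences came from RefSeq (GRCm38.p6), and transcripts, 3′ UTRs and positions from GENCODE M21 on GRCm38, an earlier release than the authors used. The alternatives were other scalings, pseudocounts, filters and thresholds, a fit of each comparison's own 4 libraries, and eBayes without trend. Others were the replicate number as a block, removal of length and GC trends by loess (span 0.3), and leaving out each library in turn. Length and GC content were those of each gene's longest annotated transcript.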

Additional observations from a re-analysis of the deposited data

How the results depend on the processing

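Precision rests on 2 libraries per group, and TPM hold no depth. With 1 library left out, its group has 1, which limma assumes to vary like the other groups. Replicate numbers did not pair the libraries (correlations of their deviations -0.054 to 0.055), and the fit with a replicate block called 7, 5, 0 and 0 of the 10 RNAs in MII over GV, Btg4tm over Btg4wt, Btg4wt over MII and Btg4tm over GV, the same numbers as without it. Of 228 recomputed counts and medians, 214 stayed within 1.5 times or within the replicate spread. Many of the medians could not change. The filters, the replicate block, the fit of a comparison's own libraries and the removal of another group's library leave them as they were. The 214 therefore overstate how far the results were put to a test.

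With mitochondrial scaling the median of the 10 RNAs was -3.21, 1.59, 0.49 and -0.97 in these comparisons, and 4 were called in Btg4tm over GV, where 2972 of 13968 genes were called lower and 38 higher. In Btg4tm over Btg4wt 7 of the 10 were called, with Eef1b2 at 1.20, where 69 of all genes were called lower and 6089 higher. In MII over GV, Tpt1, Rack1 and Npm1 were then at -1.11, -1.62 and -1.15. In Btg4tm over Btg4wt, Tpt1, Btf3, Rack1 and Npm1 were at 0.64, 1.08, 0.91 and 0.15. In Btg4wt over MII, Eef1b2, Eef1g, Tpt1, Rack1 and Npm1 were at 0.32, 0.32, 0.45, 0.36 and 0.45, and in Btg4tm over GV Tpt1, Rack1 and Npm1 at -0.013, -0.36 and -0.55. For TPM as deposited the median was -1.30 in MII over GV and -0.50 in Btg4tm over GV, where Npm1 was at -0.084. After quantile normalization the median was -0.97 for MII over GV and 0.35 for Btg4tm over Btg4wt, with Eef1b2 at 0.16 and -0.087. Npm1 was then at 0.012 in Btg4wt over MII and -0.025 in Btg4tm over GV, and all genes in MII over GV split into 2710 lower and 3110 higher against 3351 and 1752.

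With length and GC trends removed the medians were -0.39 and 0.37. Eef1b2 was at 0.29 and -0.24 and Btf3 at 0.55 in MII over GV, where Tpt1 was at 2.21. In Btg4tm over Btg4wt, Tpt1 and Npm1 were called lower (-1.35 and -1.25), and Eef1g and Eef2 were not called (0.91 and 0.79). Against the ribosomal protein RNAs, Eef1a1, Eef1d and Eef2 were at -0.46, -1.74 and 0.73 in MII over GV, Naca at -1.11 and 1.30, and Eef1g at -0.89 in Btg4tm over Btg4wt. The cause was not tested. Without a minimum fold change 2 of the 10 were called in Btg4tm over GV, where 521 genes were called lower and 1070 higher.

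Leaving out each library gave medians of -1.30 to -1.001 in MII over GV, 7 calls there, and 4 or 5 calls in Btg4tm over Btg4wt. Log2 fold changes whose ranges crossed 0 were those of Eef1b2 in MII over GV (-0.20 to 0.074), Btf3 and Rack1 in Btg4tm over Btg4wt (-0.10 to 0.097 and -0.35 to 0.027), Eef1g, Tpt1 and Npm1 in Btg4wt over MII (-0.32 to 0.27, -0.11 to 0.022 and -0.23 to 0.14), Eef1b2 in Btg4tm over GV (-0.21 to 0.030), and Naca against the ribosomal protein RNAs in Btg4tm over Btg4wt (-0.32 to 0.095). Tpt1 and Npm1 missed the minimum fold change in MII over GV as deposited (0.94 and 0.91), and Npm1 with quantile normalization (0.92). Npm1 passed it in Btg4tm over Btg4wt without Btg4wt replicate 2 (-1.12).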
